A study of Mus musculus with 2 samples.

Results

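A set of autosomal genes of germ cells and meiosis was followed through an array comparison of genomic DNA: Ddx4, Piwil1, Dazl, Spo11, Hormad1, Sycp3 and Sycp1. The members were taken by name, as the measurement probes on chromosomes 1 to 19 that carry one of these gene names in both scanner files. This gave 7 genes with 16 probes, of the 26680 names and 42404 probes on the arrays. Each of the 16 probes is 60 bases long and was spotted once per array, and all 7 genes lay on the chromosome that RefSeq gives them.

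The series asks whether the genomic DNA of mice differs when their sire carried only 1 working copy of Dnmt3L, and it holds 2 arrays, 1 per stage. In array comparative genomic hybridisation, DNA of a test and a control animal, each in its own dye, competes for the same probes, and the ratio of the dyes reads relative DNA amount. On the adult array, Cy3 carried tail DNA of adult female C57BL/6 mice sired by a Dnmt3L+/- male, and Cy5 carried tail DNA of adult C57BL/6 females of an unrelated colony. On the embryo array, made from entire embryos at E10.5 (mid-gestation), Cy5 carried the offspring of a Dnmt3L+/- male and Cy3 the embryos of a control cross. The sire was heterozygous, but every animal hybridised was labelled Dnmt3L+/+ and female. The embryos' strain is not settled, since the labels give both an F1 of FVB/NJ with C57BL/6 and C57BL/6 alone. Whether a channel holds 1 animal or a pool, and how many sires there were, was not found in the labels.

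Dnmt3L is a cofactor of the DNA methyltransferases that lay down methylation in germ cells, and male germ cells without it fail in meiosis. Meiosis needs programmed DNA breaks, a protein axis along each chromosome, and the synaptonemal complex that zips paired homologues together. A further group of germ cell proteins guards RNA: piRNA factors silence transposons, and RNA-binding proteins control translation. Many such genes have promoters rich in CpG, the dinucleotide that is methylated in mammals, and are silenced by methylation in somatic cells. Tail and embryo DNA carries these genes whether they are expressed or not, so the arrays read neither their expression nor their methylation.

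The promoters of the member with the lowest ratio in the data, Ddx4, and of Sycp3, the member with the fewest CpG, are printed to show this feature. They are RefSeq sequences of GRCm38.p6, from 250 bases before to 50 after the start of the gene, with each CpG in capitals.
Ddx4, chr13:112652261-112652560, minus strand: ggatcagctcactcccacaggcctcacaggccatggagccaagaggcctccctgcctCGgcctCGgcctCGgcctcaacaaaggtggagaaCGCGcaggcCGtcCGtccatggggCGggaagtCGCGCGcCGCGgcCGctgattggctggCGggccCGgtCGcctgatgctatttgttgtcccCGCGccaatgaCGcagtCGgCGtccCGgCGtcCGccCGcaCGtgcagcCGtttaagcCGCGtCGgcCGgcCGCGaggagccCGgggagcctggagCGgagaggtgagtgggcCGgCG
Sycp3, chr10:88459337-88459636, plus strand: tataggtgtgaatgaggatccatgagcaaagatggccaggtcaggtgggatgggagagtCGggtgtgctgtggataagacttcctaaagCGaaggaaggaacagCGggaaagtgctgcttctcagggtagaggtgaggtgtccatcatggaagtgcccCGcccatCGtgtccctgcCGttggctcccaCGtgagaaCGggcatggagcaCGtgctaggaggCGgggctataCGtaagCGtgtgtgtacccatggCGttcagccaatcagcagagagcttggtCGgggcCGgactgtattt
The letters CG were searched for, which read the same on both strands. Ddx4 holds 38 CpG in its 300 bases, and 4.95% of the 32851 promoters in the RefSeq table hold as many. Sycp3 holds 15, reached by 34.6%. Between these lie Piwil1 with 18 (29.7%), Sycp1 with 21 (24.8%), Hormad1 with 24 at either of its listed starts (20%) and Dazl with 28 (14.2%). All 6 members with an entry lay above the table's median of 7, while 94.6% of all promoters hold at least 1. Spo11 was not matched. These coordinates cannot be set against those of the probes (build not given in the sources used here), and exon or intron was not determined for any probe.

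All ratios below are log2 values of offspring of the Dnmt3L+/- sire over control, centred on the median of the array, so that 0 is the middle of all probes. With 1 array per stage there is no replicate of either comparison, and no test within a stage. In place of replicate error stand the error that the scanner software gave each spot (median 0.27 log2 in adults and 0.25 in embryos), the SD over 308 probes spotted 3 times (median 0.19 and 0.065), and the spread of all autosomal probes (SD 0.32 and 0.34). The adult array was dimmer, with median background-subtracted signals of 40.8 in offspring and 56.3 in control, against 189 in offspring and 105 in control on the embryo array. The X chromosome, although all animals were labelled female, had a median of −0.86 on both arrays. The cause of that shift was not tested. A ratio past 0.3 either way is called lower or higher here.

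As a list, the germ cell and meiosis genes lay at the middle of the autosomes on both arrays. On the adult array the median over the 16 probes was −0.02 (SD over probes 0.32), beside 0.01 over all autosomal probes. Of these 16 probes 2 were lower, or 12.5%, and 1 was higher, or 6.25%, while of all 40513 autosomal probes 13% were lower and 12.9% higher. On the embryo array the median was 0.03 (SD 0.38), beside 0.01 over the autosomes. There 1 probe was lower and 1 higher, 6.25% each, with a background of 14.2% lower and 12.4% higher among 40490 autosomal probes. No share of lower or higher members stood above the autosomal background. With normexp, an alternative background correction, 1 of the 16 was past 0.3 in adults and 3 in embryos. It adds 50 to both channels, beside median adult signals of 40.8 in offspring and 56.3 in control. By construction this draws the ratios of dim spots, before centring, toward 0. The 0.3 threshold was kept under it, and the autosomal share past 0.3 under it is not given here.

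The probes past 0.3 were not the same on the 2 arrays. The lower ones were probe 2 of Hormad1 and probe 3 of Spo11 in adults and probe 1 of Ddx4 in embryos. The higher ones were the Piwil1 probe in adults and probe 2 of Sycp1 in embryos. None of the 16 was past 0.3 in the same direction on both. The sign was the same on both arrays for 9 of 16 probes, 5 above and 4 below 0, which is 56.2%, beside 39% of 40482 autosomal probes.

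**Figure D1:**
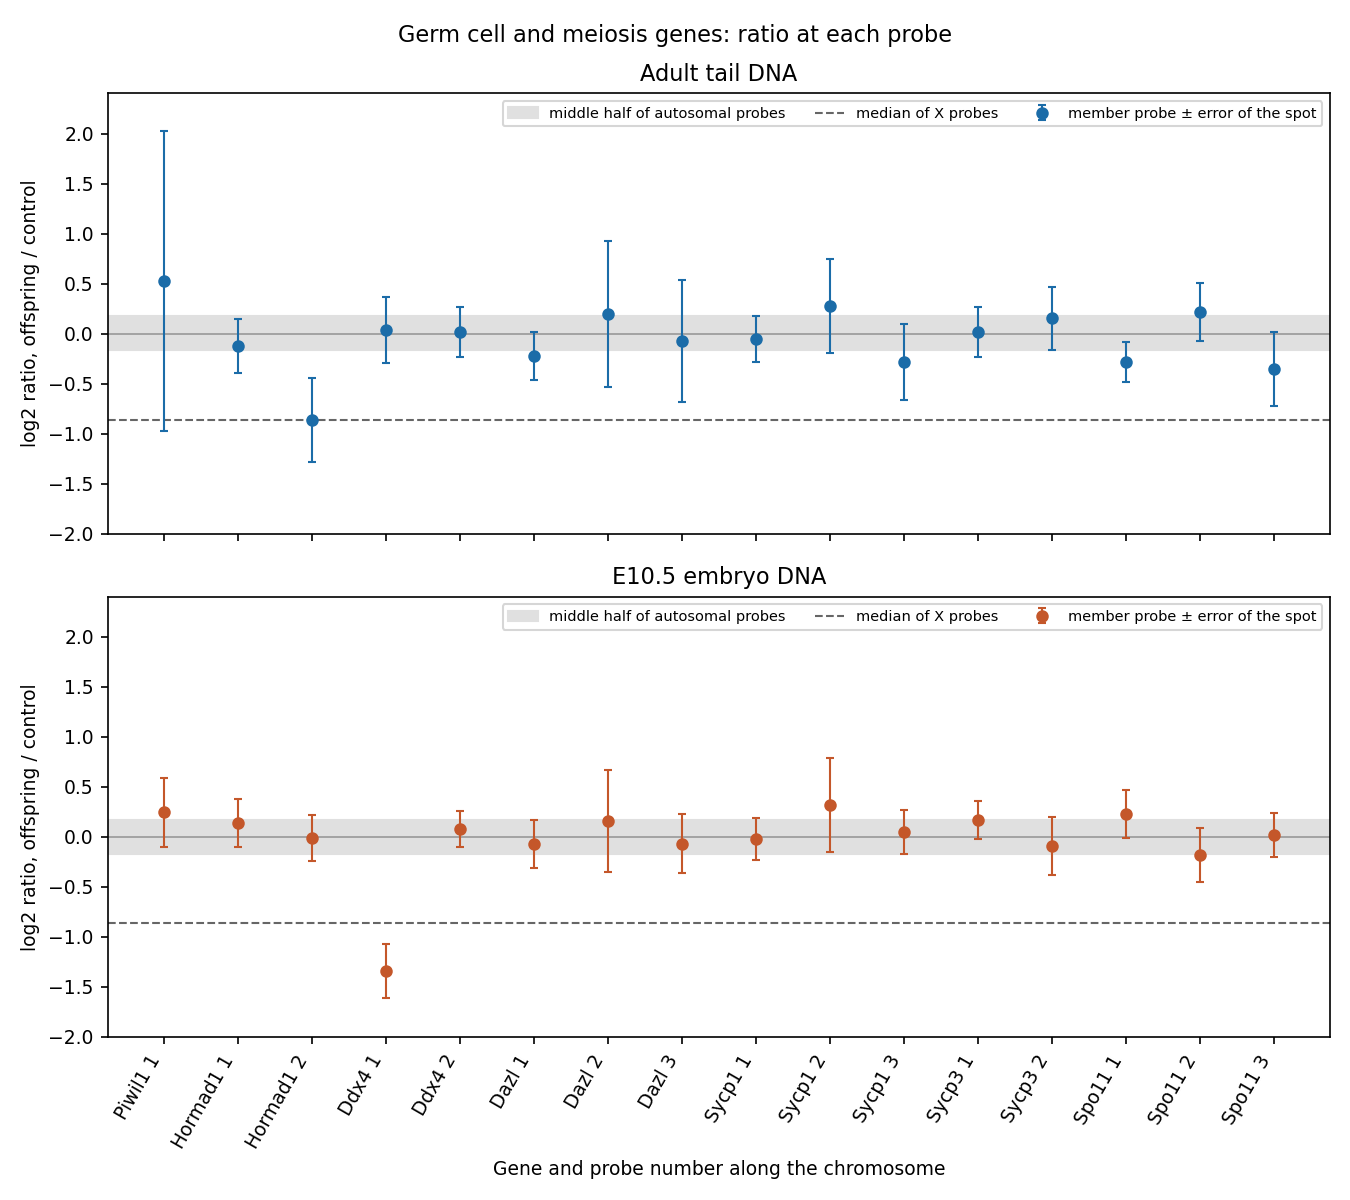
Log2 ratio of offspring of the Dnmt3L+/- sire over control at each of the 16 probes, on the adult array above and the embryo array below. Points are single spots, bars are the error the scanner software gave the spot, the grey band runs from the lower to the upper quartile of autosomal probes, and the dashed line is the X median of −0.86. Probe 1 of Ddx4 at −1.34 in embryos and probe 2 of Hormad1 at −0.87 in adults are the points that reach the X level.

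**Figure D2:**
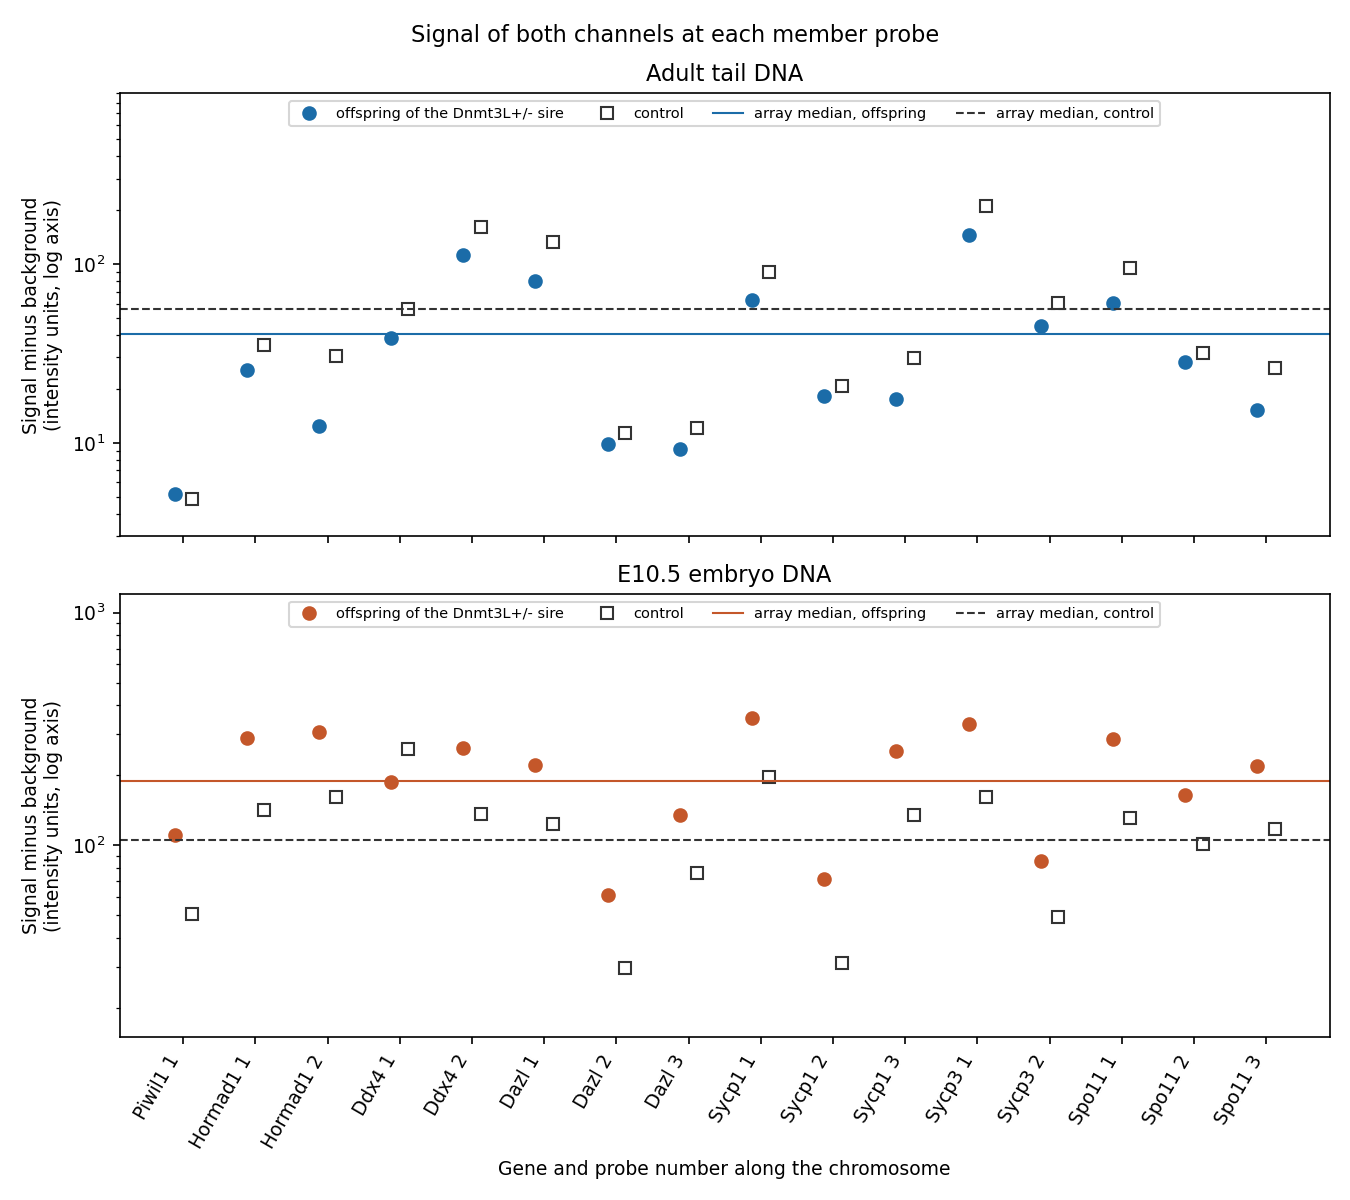
Background-subtracted signal of offspring (filled circles) and control (open squares) at each of the 16 probes, on a log axis, with each channel's median over the array as a line. On the adult array the Piwil1 probe is the dimmest member, at 5.17 and 4.86, and on the embryo array probe 1 of Ddx4 is the member whose control signal, 259, lies above its offspring signal, 188.

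Ddx4, also known as Vasa, is an RNA helicase of the germ line that works in the piRNA pathway. Its probe 1 (chr13:108992980-108993039 in the files' coordinates) had a ratio of 0.04 in adult offspring and −1.34 in embryos. Probe 2 (chr13:109038663-109038722), 45.7 kb away from end to end, had 0.02 in adults and 0.07 in embryos. So 3 of the 4 Ddx4 values lay within 0.1 of 0, and the gene median of −0.63 in embryos is the middle of a pair of probes that differ. The gap of 1.4 between them in embryos was reached by 1.1% of the 8267 autosomal names with 2 probes, whose median gap was 0.26. In adults the gap was 0.024.

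The low Ddx4 value rested on 1 spot. In it the offspring signal was 188, brighter than or equal to 49.6% of spots on the embryo array, and the control signal was 259, brighter than or equal to 93.6%. On the adult array the same probe was in the middle of both channels, with 38.4 in offspring (47.3%) and 56 in control (49.8%). In the embryo spot, then, the offspring signal ranked near the middle and the control signal well above it. A probe's rank can differ between the arrays, as for probe 2 of Hormad1 in offspring (12.1% in adults, 77.4% in embryos). Which channel left its usual level was therefore not settled and was not tested.

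The pixels of that spot were uneven. Their coefficient of variation was 26.1% in the offspring channel and 43.7% in the control channel, over 23 pixels, and 53 of the 43020 spots had a control value as high. The spot carried no outlier mark in the deposited file, which gives it a p-value of 5.2e-07 from the scanner software's error model. That model covers the error of a spot, not the spread between animals. With median in place of mean pixel signals the ratio was −1.33. The part of the uneven spot in the result was not tested.

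Of all autosomal probes on the embryo array, 18 (0.0445%) were as low as Ddx4 probe 1, and in 9 of these both neighbouring probes lay within 0.3 of 0, as here. The nearest probes, 12.6 kb and 25.3 kb from the gene's probes, had 0.13 and −0.01. The 10 probes to the left had a median of 0.12 and the 10 to the right 0.05 in embryos. Neither flank was past 0.3. Over the 2 arrays the limma fit gave probe 1 a mean of −0.65 ± 0.33 (SE), with an unadjusted p of 0.09 and a Benjamini-Hochberg adjusted p of 1.

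Piwil1 (MIWI) is a PIWI protein that binds piRNAs in spermatogenic cells. Its single probe (chr5:127913493-127913552) had the highest adult ratio among the members, 0.53, and 0.24 in embryos. The adult value came from a very dim spot: 5.17 in offspring and 4.86 in control, at or above only 3.94% and 1.69% of spots, though marked well above background in both channels. The software's error for it was 1.5 log2, and its deposited p-value was 0.71. On the brighter embryo array the signals were 111 in offspring and 50.7 in control, with an error of 0.34. The adult ratio moved with the handling of background and pixels, to 0.22 with normexp correction and to 1.04 with median pixels. Under normexp the embryo ratio was −0.09. The Piwil1 ratio was thus smaller than the error of its spot on both arrays, and the fit over both gave 0.38 ± 0.20 (SE), unadjusted p 0.099, adjusted p 1.

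Dazl, an RNA-binding protein needed for germ cells to develop and to enter meiosis, stayed within 0.3 throughout. Its probes (chr17:47812300-47812359, chr17:47815580-47815639 and chr17:47823226-47823285) had −0.23, 0.20 and −0.07 in adults. In embryos they had −0.07, 0.16 and −0.07. Each probe kept its sign between arrays, 2 below 0 and 1 above. Probes 2 and 3 were among the dim members in adults, with offspring signals of 9.8 and 9.19 against control signals of 11.4 and 12.1, and errors of 0.73 and 0.61. The span from lowest to highest probe, 0.43 in adults and 0.23 in embryos, was reached by 48.4% and 80.7% of autosomal names with 3 probes.

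Spo11 is the enzyme that makes the DNA breaks with which meiotic recombination begins. Its probes (chr2:172439554-172439613, chr2:172445400-172445459 and chr2:172452402-172452461) had −0.28, 0.21 and −0.35 in adults. In embryos the same probes had 0.23, −0.18 and 0.02. All 3 changed sign between the arrays, so no lower or higher level was shared by the stages. Probe 3, past 0.3 in adults, had signals of 15.3 in offspring and 26.3 in control and an error of 0.37, and was at 0.05 with normexp correction. As low as it were 4256 of the 40513 autosomal probes. The adult gene median of −0.28 thus came from 2 probes below 0 and 1 above.

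Hormad1 sits on the axes of chromosomes that have not yet paired and helps to control break formation and pairing. Probe 1 (chr3:95055502-95055561) had −0.12 in adults and 0.13 in embryos. Probe 2 (chr3:95063230-95063289) had −0.87 in adults and −0.01 in embryos. The lower adult probe lay at the X median of −0.86 of that array, but its partner less than 10 kb away did not. Their gap of 0.74 was reached by 8.9% of the 8273 autosomal names with 2 probes.

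On the adult array probe 2 of Hormad1 was dim, with 12.4 in offspring (12.1% of spots as dim or dimmer) and 30.5 in control (25.5%). On the embryo array it was bright and level in rank, with 307 in offspring (77.4%) and 162 in control (77%). The adult error of 0.42 and the deposited p-value of 0.043 belong to this 1 spot. As low were 653 autosomal probes, or 1.61%, and in 343 of these both neighbours lay within 0.3. With normexp correction the value was −0.20. Its mean over both arrays was −0.44 ± 0.25 (SE) in the limma fit, with an unadjusted p of 0.13 and an adjusted p of 1. The 10 probes on the left of the gene had a median of −0.19 and the 10 on the right 0.22 in adults, both within 0.3.

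Sycp3 builds the lateral elements of the synaptonemal complex, along which the chromatin loops are anchored. Its probes (chr10:88434400-88434459 and chr10:88438331-88438390) had 0.02 and 0.15 in adults and 0.16 and −0.09 in embryos. Probe 1 was the brightest member in adults, with 145 in offspring and 212 in control, and its error was 0.25. No Sycp3 value was past 0.3, and the gene medians were 0.08 and 0.03.

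Sycp1 forms the transverse filaments that bridge the lateral elements. Its probes (chr3:102267027-102267086, chr3:102304164-102304223 and chr3:102339511-102339570) had −0.05, 0.28 and −0.28 in adults. In embryos they had −0.02, 0.31 and 0.04. Probe 2 was thus the highest of the gene on both arrays. It was also dim on both, with 18.3 in offspring and 20.8 in control in adults and 71.5 in offspring and 31.2 in control in embryos, and its error was 0.47 on each. In embryos 11.3% of autosomal probes were as high, and with normexp correction the value was −0.23. Its mean over both arrays was 0.30 ± 0.19 (SE), with an unadjusted p of 0.17 and an adjusted p of 1 in limma.

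Ordered by gene median from high to low, the adult list was Piwil1 (0.53), Sycp3 (0.08), Ddx4 (0.03), Sycp1 (−0.05), Dazl (−0.07), Spo11 (−0.28) and Hormad1 (−0.49). In embryos it was Piwil1 (0.24), Hormad1 (0.06), Sycp1 (0.04), Sycp3 (0.03), Spo11 (0.02), Dazl (−0.07) and Ddx4 (−0.63). Neighbours in either order differed by less than the median error of a single spot except, in adults, Piwil1 from Sycp3, and, in embryos, Dazl from Ddx4. Piwil1 came first on both arrays, but with normexp correction it was level with Dazl in adults (0.22 each) and at −0.09 in embryos, where Hormad1 (0.24), Sycp1 (0.17), Spo11 (0.10) and Sycp3 (0.08) lay above it. The low end differed between arrays: Hormad1 in adults, at −0.05 with normexp, and Ddx4 in embryos, at −0.50 with it.

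A limma fit took the 2 arrays as 2 replicates. It called 0 of 42362 probes at an adjusted p under 0.05 (0%), with 0.22 as the smallest, while 1920 (4.53%) were under 0.05 before adjustment. With normexp correction it called 39, none of them a member probe. Among the members 0 of 16 passed at either level. The 2 arrays differ in stage, tissue and control, so this fit reads only what both share. The probes fitted without normexp included those of the X, with a median of −0.86 on both arrays, and none was called. So even a shift of that size in both arrays went uncalled, and the count of 0 cannot show that the members were unshifted.

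No flank was past 0.3 as a whole. The median of the 10 probes on each side was taken for every gene on both arrays, and all of these medians lay between −0.20 and 0.22. Flanks reached from 203 kb (right of Sycp1) to about 1.45e+03 kb (right of Dazl). Single probes in them were past 0.3. Left of Hormad1, 4 of 10 probes were lower in adults, the nearest at −0.52 in adults and 0.10 in embryos. The nearest probe left of Spo11 had 0.78 in adults and −0.77 in embryos, and the highest in that flank reached 2.03 in embryos. The nearest probe left of Sycp3 had 0.62 in adults and −0.52 in embryos. The nearest probes of Piwil1, Dazl and Sycp1, on either side, lay within 0.3 on both arrays.

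**Figure D3:**
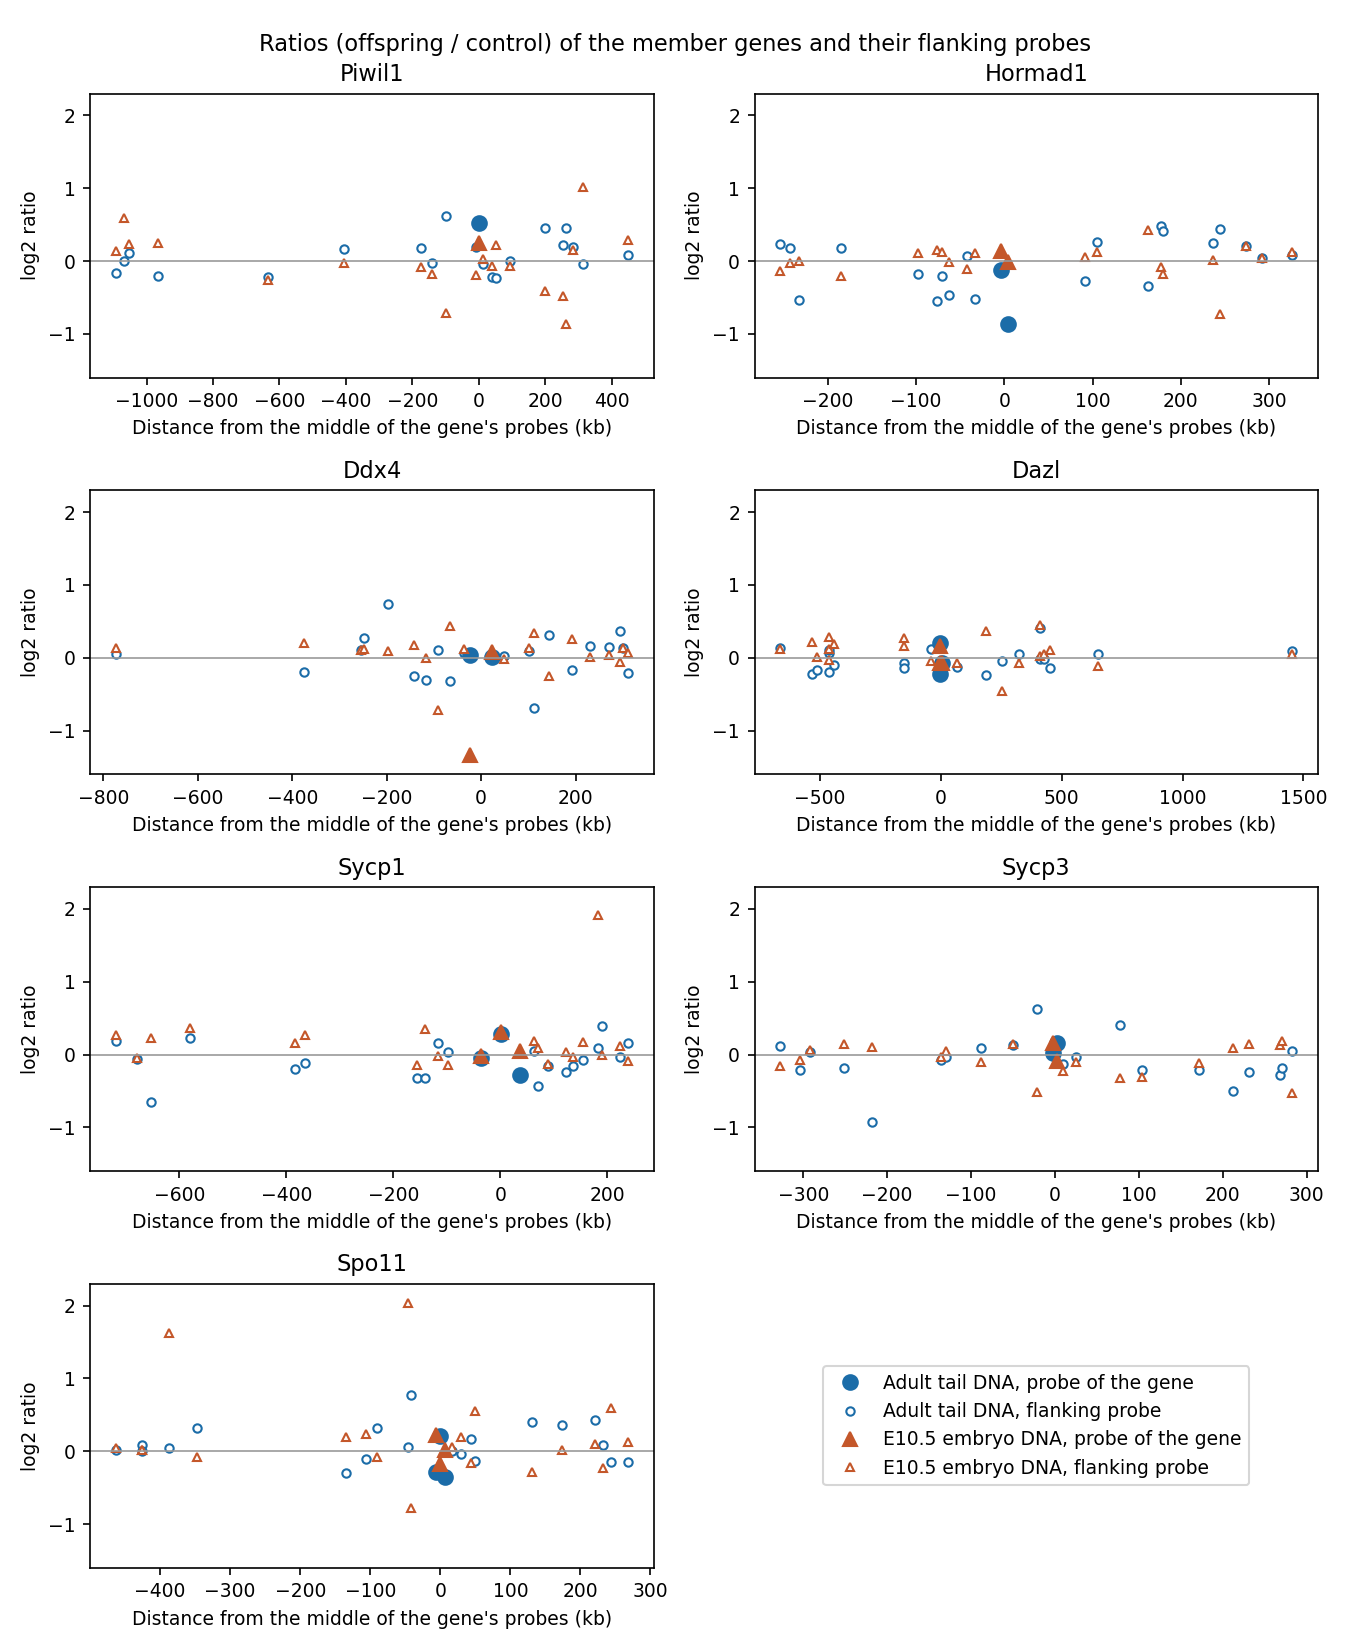
Log2 ratio of offspring of the Dnmt3L+/- sire over control against distance in kb from the middle of each gene's probes, for the 7 genes (large filled symbols) and the 10 probes on each side (small open symbols), with circles for adults and triangles for embryos. Single flanking probes scatter on both sides of 0, and the median of every flank lies between −0.20 and 0.22.

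Of 75 further autosomal genes on lists of the synaptonemal complex, meiotic recombination, meiotic cohesin, the piRNA pathway and germ cell RNA-binding and specification factors, 65 were measured. In adults 5 (7.69%) had a rounded median at or past 0.3 on the lower side and 9 (13.8%) on the higher side. Of 25026 autosomal names, 9.89% were lower and 9.45% higher. The 5 include Cpeb1, whose −0.30 lay just within 0.3 before rounding. In embryos 10 (15.4%) were lower and 3 (4.62%) higher, beside 11.2% and 10.2% of 25390 names. Over their probes, 8.66% were lower and 17.3% higher in adults (127 probes, median 0.06), with an autosomal background of 13% and 12.9%. In embryos 17.4% were lower and 9.09% higher (132 probes, median −0.02), with a background of 14.2% and 12.4%. The share past 0.3 thus lay above the background on the higher side in adults and on the lower side in embryos. At the gene level this rests on 9 and 10 genes, and the difference in shares was not tested. The arrays differ in dye orientation, and of all autosomal probes 39% had the same sign on both. None of the 65 genes was past 0.3 in the same direction on both arrays, and 4 were past it in opposite directions.

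Among synaptonemal complex genes, the adult extremes were Hormad1 and Tex12 (0.49), a protein of the central element, and the embryo extremes were Hormad2 (−0.34), a relative of Hormad1, and Tex12 (0.26). Among recombination genes they were Spo11 and Mei1 (0.37), needed for break formation, in adults, and Msh5 (−0.42), a stabiliser of crossover intermediates, and Rnf212 (0.23), a crossover factor, in embryos. The 8 measured genes of the first list and the 18 of the second had probe medians of 0.06 and 0.06 in adults and −0.02 and −0.04 in embryos. With normexp correction Msh5 was at −0.31, and Tex12 (0.25 in adults), Hormad2 (−0.22) and Mei1 (0.18) were no longer past 0.3. Tex12 and Rnf212 were at −0.25 and 0.43 in embryos. The offset of normexp also moves the scale, so a fall within 0.3 under it is not particular to these genes. In adults the median of X-linked germ cell genes went from −0.85 to −0.49 with it.

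Among the 5 measured genes of meiotic cohesin, the ring that holds sister chromatids, Rec8 was the lowest in adults (−0.50) and the highest in embryos (0.94). Stag3 was the highest in adults (0.13), and Sgo2a, a protector of cohesin, was the lowest in embryos (−0.17). Among the 18 piRNA genes Tdrkh (−0.60), a Tudor protein that binds PIWI proteins, was the lowest in adults and Tdrd12 (0.85), another Tudor protein, the highest. In embryos they were Ddx4 and Fkbp6 (0.35), a cochaperone. Of the 23 RNA-binding and specification genes the extremes were Cpeb1 (−0.30), a regulator of translation, and Dnd1 (0.74) in adults. In embryos they were Dnd1 (−0.61) and Tfap2c (1.63), a transcription factor of primordial germ cells. Tfap2c, with 1 probe, was at 0.04 in adults. With normexp correction Tdrkh (−0.10), Tdrd12 (0.13), Fkbp6 (0.20) and the adult Dnd1 value (0.29) were no longer past 0.3. Cpeb1, just within 0.3 before it, was at −0.16. The embryo values of Tfap2c and Dnd1 were 0.74 and −0.41 with it, and Rec8 stayed past 0.3 on both arrays, at −0.32 in adults and 1.19 in embryos.

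The clear contrast was with germ cell genes on the X. Of 10 listed, 7 were measured and all 7 were lower on both arrays, with probe medians of −0.85 over 13 probes in adults and −0.75 over 14 in embryos. Tex11, a meiotic gene, was the lowest in adults at −2.48, from 1 usable probe, and Tktl1 the highest at −0.66. With normexp correction Tex11 was at −0.48 in adults, near the list median of −0.49 under that correction. In embryos Tktl1 was the lowest at −1.35 and Tex16 the highest at −0.45. This is the level of the whole X, of whose probes 90.9% in adults and 93.6% in embryos were lower. All 7 autosomal members lay above the X-linked list medians of both arrays. In embryos, however, Ddx4 (−0.63) lay below the X-linked genes Tex16 (−0.45) and Usp26 (−0.49).

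**Figure D4:**
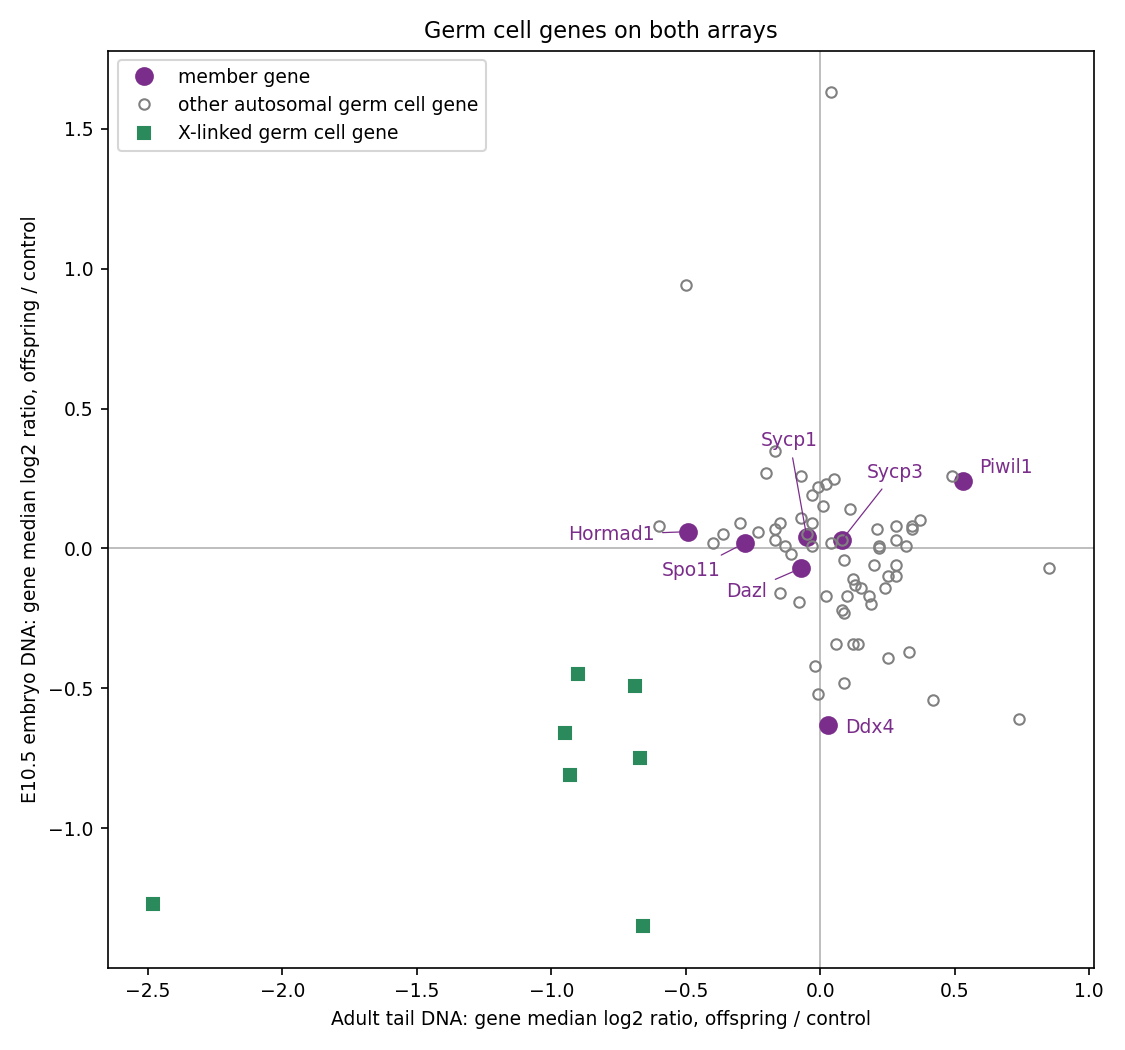
Median log2 ratio of offspring of the Dnmt3L+/- sire over control of each germ cell gene in adult tail DNA (horizontal axis) and in E10.5 embryo DNA (vertical axis), with the 7 autosomal members named, other autosomal germ cell genes as open circles and X-linked ones as squares. All 7 X-linked genes lie below −0.3 on both axes, and no autosomal gene does.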

How the data were processed

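Genomic DNA was hybridised to 2 Agilent 2-colour arrays, 1 per stage. The labels gave the groups and dyes. The intensity values of the deposited files were written by Agilent Feature Extraction 9.1.1.1, per the file headers (9.1 per the submitters' processing notes), with background subtraction, spatial detrending and linear dye normalization. The deposited log10 ratios, the series matrix included (within 0.0005 of them), the error of each spot and the p-value of each spot come from the same software, per the file headers. The genome build of the coordinates was not given in the sources used here.

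From these, control spots and spots with an outlier mark (8 adult, 34 embryo) were left out. The log2 ratio of offspring over control was taken from the processed signals, as Cy3 over Cy5 on the adult array and Cy5 over Cy3 on the embryo array, repeated spots were averaged, and the median of the array was subtracted. Gene values are medians over probes well above background in both channels. A ratio at or beyond 0.3 either way was called, and the 10 nearest probes on each side were taken as flanks. Both arrays were fitted in limma 3.58.1 (R 4.3.3; lmFit and eBayes against 0, 2-sided, Benjamini-Hochberg over all probes). Python 3.11.15 with numpy 2.4.6, pandas 2.3.3 and matplotlib 3.10.9 did the rest. The steps were tested on simulated data.

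The text names every member with all its probes, and for each list the highest and lowest gene on each array. Members and lists were chosen with earlier results of these data known. Older gene names in the files were matched to current symbols through the synonyms of the RefSeq table, and RefSeq promoters (GRCm38.p6) matched 6 of the 7 members. Alternatives changed the background correction, detrending, loess, centring, dim probes, outlier marks, deposited ratio columns, threshold, and mean or median over probes. The normexp correction used an offset of 50 and started from signals before dye normalization. The number of arrays limits the precision.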

Additional observations from a re-analysis of the deposited data

Results flagged for a closer look

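Of the germ cell genes outside the 7 members, 4 were past 0.3 on both arrays in opposite directions; the differences were not tested, since each stage has 1 array. The gene median of Rec8, a meiotic cohesin subunit with 1 probe, was −0.50 in adults and 0.94 in embryos, an adult minus embryo difference of −1.44. That of Tdrd6, a Tudor protein of germ cells with 2 probes, was 0.42 in adults and −0.54 in embryos, a difference of 0.96. Dnd1, an RNA-binding protein of primordial germ cells with 1 probe, had 0.74 in adults and −0.61 in embryos, a difference of 1.35. Sohlh2, a transcription factor of early germ cells with 2 probes, had 0.33 in adults and −0.37 in embryos, a difference of 0.70. With normexp correction only Rec8 stayed past 0.3 on both arrays (−0.32 in adults and 1.19 in embryos). The adult values of Tdrd6 (0.20), Dnd1 (0.29) and Sohlh2 (0.08) then fell within 0.3, as did the embryo value of Sohlh2 (−0.25). The arrays also differ in dye orientation and control, so stage, dye and control cannot be told apart here.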

How the results depend on the processing

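The adult median over the 16 probes stayed within −0.06 to 0.01 under every alternative run, and the embryo median within 0.02 to 0.09 except with centring on the 10 nearest probes on each side, where it was −0.06. The adult count of probes past 0.3 was 3, and became 1 with normexp and 4 with loess. It was 5 on signals before detrending and dye normalization, 5 with local centring and 5 with median pixel signals. At thresholds of 0.2 and 0.5 it was 9 and 2. The embryo count was 2, and became 3 with normexp, 1 with local centring and 1 without the low Ddx4 spot. It was 4 at a threshold of 0.2 and 1 at 0.5. Median pixels and leaving out that spot were added after seeing the data. In limma the count of 0 became 39 with normexp, with 0 members among them. The cause was not tested, beyond that thresholds, local centring, the omitted spot and the normexp offset of 50 act by construction. The part of the offset in each change under normexp was not tested.

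Under the alternatives 71 of 77 member gene values in adults and 66 of 77 in embryos moved less than the spread over repeated spots. The other 6 and 11 moved by more, and no gene value past 0.3 changed sign. Normexp correction gave 5 of the 6 moves in adults and 6 of the 11 in embryos. Single probes past 0.3 did change sign with it. Probe 3 of Spo11 went from −0.35 to 0.05 in adults, and probe 2 of Sycp1 from 0.31 to −0.23 in embryos. The probes of Hormad1, Piwil1 and Ddx4 that were past 0.3 kept their sign with normexp. Ddx4 probe 1 stayed between −1.45 and −1.24. Centring on neighbours removes a shift of a whole chromosome by construction: the X-linked list median became 0.05 in adults and 0.13 in embryos, Tktl1 0.19 in adults, and Tex16 0.01 in adults and 0.38 in embryos. With it Tex11 was −1.51 in adults. With normexp Tex16 was 0.10 in adults, and the X-linked list median was −0.49 in adults and −0.52 in embryos. Centring by probe base composition was not run, as no probe sequences were used here. With 1 array per stage, no array can be left out and no paired fit made.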
